A study of Mus musculus with 5 samples.

Results

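The genes of sterol synthesis and lipogenesis were examined in kidneys after unilateral ischemia-reperfusion injury (UIRI), in mice with and without a tubular deletion of Prdm16. The set comprised 31 genes, chosen by exact match of gene name among the 35478 genes of the deposited tables. It held 18 enzymes of the sterol pathway, 4 regulators of the SREBP system, 3 sterol transport genes and 6 enzymes of fatty acid synthesis and desaturation. All 31 passed the filter on low counts, which kept 16394 genes, and their counts per library ranged from 56 to 18611.

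RNA-seq was performed on 5 kidneys, 1 library per mouse, from 2 PRDM16flox/flox mice (numbered 1 and 3) and 3 Ksp-cre/PRDM16flox/flox mice (numbered 1, 2 and 3). All mice were male and 7 to 8 weeks old, and the controls were littermates. Their strain is given as C57BL/6J;129 in the strain label and as C57BL/6J in the sample titles, and both groups carried loxP sites around exon 9 of Prdm16 on both alleles. The Ksp-cre transgene expresses the recombinase in tubular epithelial cells, so other cells of the kidney kept the gene. In both groups the left renal pedicle was clamped for 35 minutes with the body kept at 38.5 °C, the right kidney was taken out on day 10, and the animals were killed on day 11. The tissue was labelled kidney, and the methods name the cortex. Mice without injury and mice with Cre but no floxed allele were not analysed here, so the comparison is between genotypes within the injured state.

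Cells make cholesterol from acetyl-CoA through mevalonate, farnesyl diphosphate, squalene and lanosterol. Low sterol in the endoplasmic reticulum releases the transcription factor SREBP2, encoded by Srebf2, for processing, and the processed factor activates the genes of the pathway. INSIG proteins retain the SREBP precursors when sterol is abundant, and Insig1 is itself an SREBP target. SREBP1, encoded by Srebf1, acts mainly on fatty acid synthesis, while oxysterols activate the nuclear receptor LXR, whose targets include the sterol exporters Abca1 and Abcg1. SREBPs bind sterol regulatory elements (SRE), commonly next to a CCAAT box bound by NF-Y, and SREBP1 also binds E-boxes.

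The sequence upstream of the members' start sites was read for these motifs, because many of these genes are known to be controlled through them. Of the 31 members, 24 had an entry in the RefSeq promoter table (GRCm38.p6), and the 250 bases before each annotated start were searched on both strands. Fdft1, Fdps, Sqle, Scd1, Scd2, Abcg1 and Stard4 had no entry and were not searched. The NF-Y box CCAAT was present before 20 of the 24 members (83.3%) and before 37.5% of all 27025 gene symbols in the table. The E-box CACGTG was present before 5 members (20.8%) and 6.86% of symbols, and the sterol element TCACNCCAC before 1 member, Hmgcs1, and 1.22% of symbols. Only this exact pattern was searched, so sterol elements with other letters, or further from the start, were not counted. Members and other genes differ in the number of start sites listed. Counted over windows instead, the CCAAT box stood in 21 of 31 member windows and in 33.8% of all 32851 windows. The 3 motifs share no overlap in the stretches below. Among the 24 members, Acat2, Acaca, Elovl6 and Abca1 had no CCAAT box, and of these Acat2 was lower in Ksp-cre/PRDM16flox/flox kidneys. The box was present before Insig2, Srebf1, Srebf2, Sc5d, Pmvk, Idi1 and Dhcr7, whose groups overlapped. The stretches were picked by expression. They are those of the sterol enzymes and of Insig1 with some of the lowest values in Ksp-cre/PRDM16flox/flox kidneys, and of Abca1, which was higher. They are written 5′ to 3′ on the gene's strand, with motif letters in capitals. ATTGG is CCAAT on the other strand. A match is a description of letters, not of binding.
Hmgcs1 (chr13:119690102-119690322, plus strand, 249 to 29 bases before the start, with the sterol element TCACCCCAC and 3 CCAAT boxes): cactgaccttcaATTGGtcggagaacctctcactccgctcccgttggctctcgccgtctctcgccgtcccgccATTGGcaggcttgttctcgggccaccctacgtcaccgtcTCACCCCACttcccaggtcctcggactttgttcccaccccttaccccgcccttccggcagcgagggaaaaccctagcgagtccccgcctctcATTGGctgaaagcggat
Cyp51 (chr5:4104710-4104738, minus strand, with 1 CCAAT box): cgctgtccgccaCCAATctggtcctgaga
Nsdhl (chrX:72918400-72918517, plus strand, with CCAAT boxes 109 and 20 bases before the start): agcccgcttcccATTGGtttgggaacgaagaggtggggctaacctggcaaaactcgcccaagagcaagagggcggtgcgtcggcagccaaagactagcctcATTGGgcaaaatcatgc
Ebp (chrX:8193551-8193694, minus strand, with CCAAT boxes 170 and 55 bases before the start): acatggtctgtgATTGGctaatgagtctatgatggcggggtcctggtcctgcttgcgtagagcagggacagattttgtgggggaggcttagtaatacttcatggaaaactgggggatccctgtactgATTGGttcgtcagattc
Insig1 (chr5:28071184-28071328, plus strand, with a CCAAT box and an E-box): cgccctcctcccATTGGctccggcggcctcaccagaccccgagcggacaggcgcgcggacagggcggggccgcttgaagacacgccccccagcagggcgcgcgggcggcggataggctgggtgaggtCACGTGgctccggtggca
Abca1 (chr4:53160025-53160054, minus strand, with the E-box 147 bases before the start): gggccatgtctcCACGTGctttctgctgag

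Total counts per library ranged from 14939040 to 16425161. Ksp-cre/PRDM16flox/flox mouse 3 stood apart from the others: its correlations of log2 CPM with the remaining libraries were 0.943 to 0.960, and those among the other 4 libraries were 0.970 to 0.991. Results that depend on it are therefore also given without it. Prdm16 itself was counted over all its exons together, those outside the deleted exon 9 included, and its CPM (counts per 1000000 TMM-scaled counts) was 25.3 and 20.02 in PRDM16flox/flox mice and 17.1, 17.0 and 17.99 in Ksp-cre/PRDM16flox/flox mice. The groups did not overlap. The difference was -0.38 ± 0.16 (SE) on the log2 scale and did not pass the test (edgeR, adjusted p = 0.259).

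Most members had lower levels in Ksp-cre/PRDM16flox/flox kidneys, led by enzymes of the sterol pathway and Insig1, and most were lowest in mouse 3. A log2 fold change below 0 was fitted for 26 of the 31 members (83.9%) and for 46.0% of all genes tested. The median over the members was -0.30 (-0.18 without mouse 3) on the log2 scale, beside 0.04 (0.02) over all genes. Every Ksp-cre/PRDM16flox/flox library lay below both PRDM16flox/flox libraries for 16 members (51.6%) and for 21.3% of all genes. Every one lay above them for 2 members, Abca1 and Elovl6, and for 20.3% of all genes. The groups overlapped for the remaining 13.

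No member reached an adjusted p under 0.05 in edgeR with all 5 libraries, where 160 of all genes (0.976%) did. At an unadjusted p under 0.05, 9 members were lower (11.2% of all genes were) and 2 were higher (7.64% of all genes). DESeq2 called 6 members lower (5.5% of all genes) and 1 higher (1.88%). The 6 were Acat2, Mvd, Cyp51, Nsdhl, Ebp and Insig1, and the other was Abca1. Without Ksp-cre/PRDM16flox/flox mouse 3, edgeR called 8 members lower, namely those 6 with Hmgcs1 and Msmo1, and 11.0% of all genes. It then called 2 higher, Abca1 and Elovl6, and 7.82% of all genes. The latter comparison rests on 2 mice against 2.

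**Figure D1:**
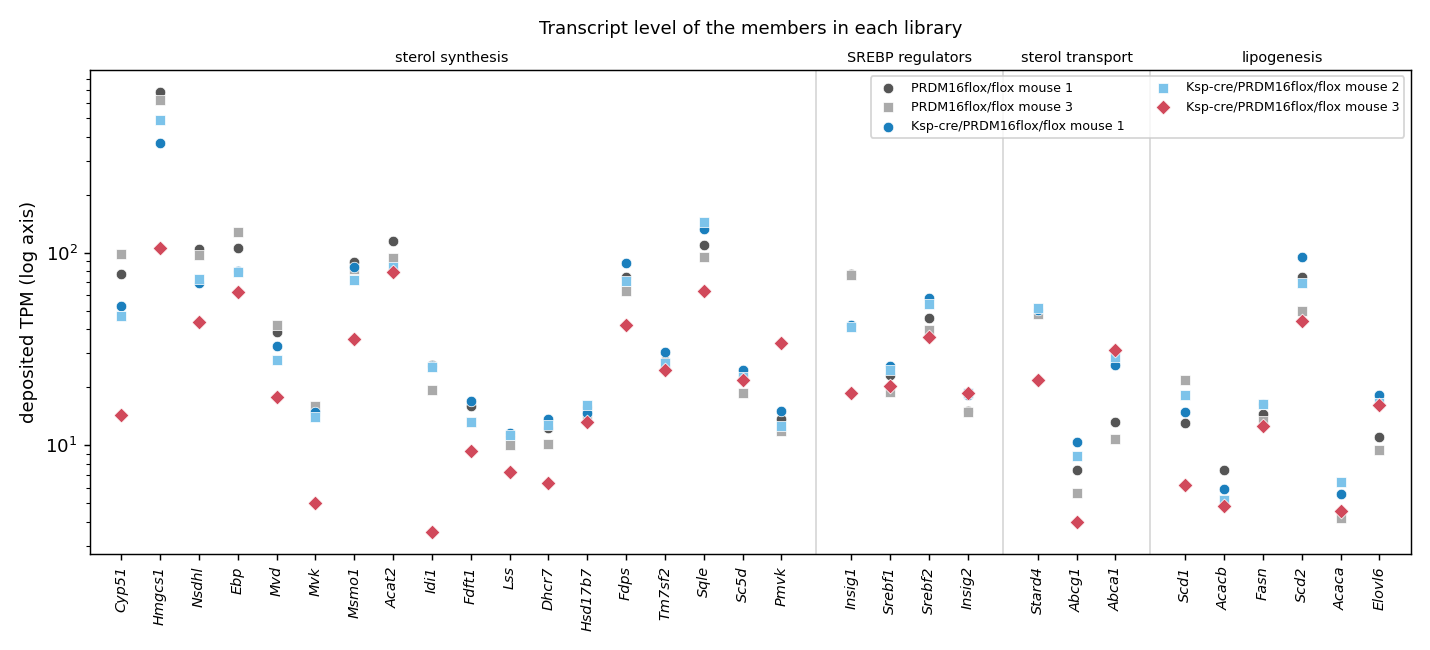
Deposited TPM (log axis) of each member in each of the 5 libraries, with members grouped by role and ordered by log2 fold change. Hmgcs1 stands above all others in each library, at 683 and 616 TPM in PRDM16flox/flox mice and at 371, 489 and 106 TPM in Ksp-cre/PRDM16flox/flox mice.

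Levels were compared between genes in TPM, which accounts for gene length. Hmgcs1, which condenses acetoacetyl-CoA with acetyl-CoA ahead of mevalonate, had the highest level of the set by a wide margin, with 683 and 616 TPM in PRDM16flox/flox mice. Next in the PRDM16flox/flox mean were Ebp (105.5 and 129 TPM), Acat2 (115 and 93.8), Sqle (109.7 and 95.0) and Nsdhl (104 and 97.2). The ranges of these 4 enzymes over both mice overlapped, except that Ebp lay just above Nsdhl, so their order is mostly not resolved. Acaca, a carboxylase of acetyl-CoA, had the lowest level at 4.45 and 4.17 TPM. Acacb (7.45 and 5.18 TPM) and Abcg1 (7.39 and 5.65 TPM) came next, with overlapping ranges.

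Among the 18 enzymes of sterol synthesis, 12 (66.7%) were lower in every Ksp-cre/PRDM16flox/flox mouse than in both PRDM16flox/flox mice. This held for 21.3% of all genes. None of the 18 was higher in every one, while 20.3% of all genes were. The median log2 fold change of the 18 was -0.49 with all libraries and -0.25 without mouse 3. By library, the median distance from the PRDM16flox/flox mean was -0.25, -0.36 and -0.89 on the log2 scale in Ksp-cre/PRDM16flox/flox mice 1, 2 and 3. It was 0.005 and -0.005 in PRDM16flox/flox mice, which define that mean.

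The early steps lead from acetyl-CoA to mevalonate. Acat2, the cytosolic acetoacetyl-CoA thiolase, had 104 and 93.5 CPM in PRDM16flox/flox mice and 63.2, 64.9 and 69.1 CPM in Ksp-cre/PRDM16flox/flox mice. The groups did not overlap, mouse 3 was close to the other 2, and the log2 fold change was -0.59 ± 0.11 (SE), with an adjusted p of 0.0669 in edgeR and 0.00379 in DESeq2. Without mouse 3 it was -0.62 ± 0.10. Acat2 has a near copy, Acat3, whose counts were 642 and 623 in PRDM16flox/flox mice and 752, 1048 and 1683 in Ksp-cre/PRDM16flox/flox mice. How reads shared by the pair were assigned is not given in the sources used here, so the value of Acat2 is uncertain.

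Hmgcs1 (chromosome 13, 120151887 to 120169796 in the files, whose mouse build is not named) had 1255 and 1248 CPM in PRDM16flox/flox mice. It had 583, 769.6 and 187 CPM in Ksp-cre/PRDM16flox/flox mice. All 3 were lower than both, and they differed among themselves far more than the 2 PRDM16flox/flox mice did. Its log2 fold change was -1.29 ± 0.53 (SE), with an adjusted p of 0.264 in edgeR and 0.0805 in DESeq2. Without mouse 3 it was -0.89 ± 0.15, with an adjusted p of 0.00518 in edgeR.

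The mevalonate steps followed no single pattern. Mvd, the decarboxylase that yields isopentenyl diphosphate, had 31.4 and 37.5 CPM in PRDM16flox/flox mice and 22.6, 19.3 and 13.9 CPM in Ksp-cre/PRDM16flox/flox mice. Its groups did not overlap, and its log2 fold change was -0.89 ± 0.22 (SE), with an adjusted p of 0.118 in edgeR and 0.0195 in DESeq2. Without mouse 3 it was -0.71 ± 0.14. On the opposite strand, LOC118567623 shares 28.6% of the exonic bases of Mvd, and whether counting used strand is not given in the sources used here.

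Mvk, mevalonate kinase, had 11.3 and 13.6 CPM in PRDM16flox/flox mice and 9.82, 9.33 and 3.73 CPM in Ksp-cre/PRDM16flox/flox mice. All 3 were lower, and the log2 fold change went from -0.70 ± 0.41 (SE) to -0.37 ± 0.16 without mouse 3. Pmvk, the next kinase, had 20.2 and 19.2 CPM in PRDM16flox/flox mice and 19.0, 15.9 and 48.0 CPM in Ksp-cre/PRDM16flox/flox mice. It was the only member at least 2-fold higher in mouse 3 than in both other Ksp-cre/PRDM16flox/flox mice, as were 3.69% of all genes. Its log2 fold change turned from 0.48 ± 0.49 (SE) to -0.17 ± 0.14 without mouse 3.

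Idi1, the isomerase of isopentenyl diphosphate, was near the PRDM16flox/flox level in 2 mice and far below it in mouse 3. It had 32.5 and 26.7 CPM in PRDM16flox/flox mice and 27.7, 27.1 and 4.26 CPM in Ksp-cre/PRDM16flox/flox mice. This gave a log2 fold change of -0.59 ± 0.68 (SE) and, without mouse 3, of -0.11 ± 0.13. Fdps and Fdft1, which make farnesyl diphosphate and squalene, had log2 fold changes of -0.29 ± 0.26 and -0.39 ± 0.21. Without mouse 3 these were -0.07 and -0.24. Exons of Fdft1 overlap Ctsb on the opposite strand over 7.4% of their length.

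Squalene becomes lanosterol through Sqle, squalene epoxidase, and Lss, lanosterol synthase. Sqle had 131 and 125 CPM in PRDM16flox/flox mice and 136, 148 and 72.5 CPM in Ksp-cre/PRDM16flox/flox mice. Mice 1 and 2 were above both PRDM16flox/flox mice and mouse 3 was below them, and the log2 fold change went from -0.11 ± 0.30 (SE) to 0.15 ± 0.10 without mouse 3. Lss was lower in all 3 mice, with a log2 fold change of -0.32 ± 0.18 (-0.18 ± 0.11 without mouse 3), and shares 5.5% of its exonic bases with 4930483K19Rik on the opposite strand.

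The steps after lanosterol held the lowest log2 fold change of the pathway, that of Cyp51. Cyp51 (chromosome 5, 4130674 to 4154697 in the files), the lanosterol 14-alpha demethylase, had 146 and 205 CPM in PRDM16flox/flox mice and 85.7, 76.5 and 26.1 CPM in Ksp-cre/PRDM16flox/flox mice. The groups did not overlap, and mouse 3 was by far the lowest. At -1.48 ± 0.47 (SE), its log2 fold change was the lowest of the 31 members, with an adjusted p of 0.180 in edgeR and 0.0204 in DESeq2. Without mouse 3 it was -1.11 ± 0.16, with an adjusted p of 0.00286 in edgeR.

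Msmo1 and Nsdhl act in the removal of the C-4 methyl groups of sterols. Msmo1, the methyl oxidase, had 91.0 and 92.4 CPM in PRDM16flox/flox mice and 72.6, 62.4 and 34.8 CPM in Ksp-cre/PRDM16flox/flox mice. Nsdhl, the dehydrogenase, had 100.4 and 103.5 CPM in PRDM16flox/flox mice and 57.7, 60.4 and 40.3 CPM in Ksp-cre/PRDM16flox/flox mice. For both, the PRDM16flox/flox mice lay close together and every Ksp-cre/PRDM16flox/flox mouse lay below them. For Nsdhl the log2 fold change was -0.95 ± 0.19 (SE), with an adjusted p of 0.0726 in edgeR and 0.0013 in DESeq2, and -0.79 ± 0.09 without mouse 3. That of Msmo1 was -0.70 ± 0.29, with an adjusted p of 0.275 in edgeR, and -0.44 ± 0.11 with an adjusted p of 0.0257 without mouse 3. Hsd17b7, the ketosteroid reductase of this complex, had 39.2 and 39.5 CPM in PRDM16flox/flox mice and 30.99, 34.1 and 31.3 CPM in Ksp-cre/PRDM16flox/flox mice. Its log2 fold change was -0.29 ± 0.11, with an adjusted p of 0.245 in edgeR.

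Ebp, the sterol isomerase, had 80.2 and 108 CPM in PRDM16flox/flox mice and 52.3, 51.6 and 45.4 CPM in Ksp-cre/PRDM16flox/flox mice. The 3 lower values lay within a narrow range, mouse 3 included. Ebp had a log2 fold change of -0.92 ± 0.16 (SE), with an adjusted p of 0.0563 in edgeR and 0.000386 in DESeq2, and of -0.85 ± 0.14 without mouse 3. The other late enzymes showed smaller differences: Tm7sf2, a sterol reductase, had a log2 fold change of -0.22 ± 0.15, Sc5d, the desaturase, of -0.09 ± 0.11, and Dhcr7, the last reductase, of -0.30 ± 0.28 (-0.06 ± 0.12 without mouse 3). For Sc5d and Dhcr7 the groups overlapped.

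**Figure D2:**
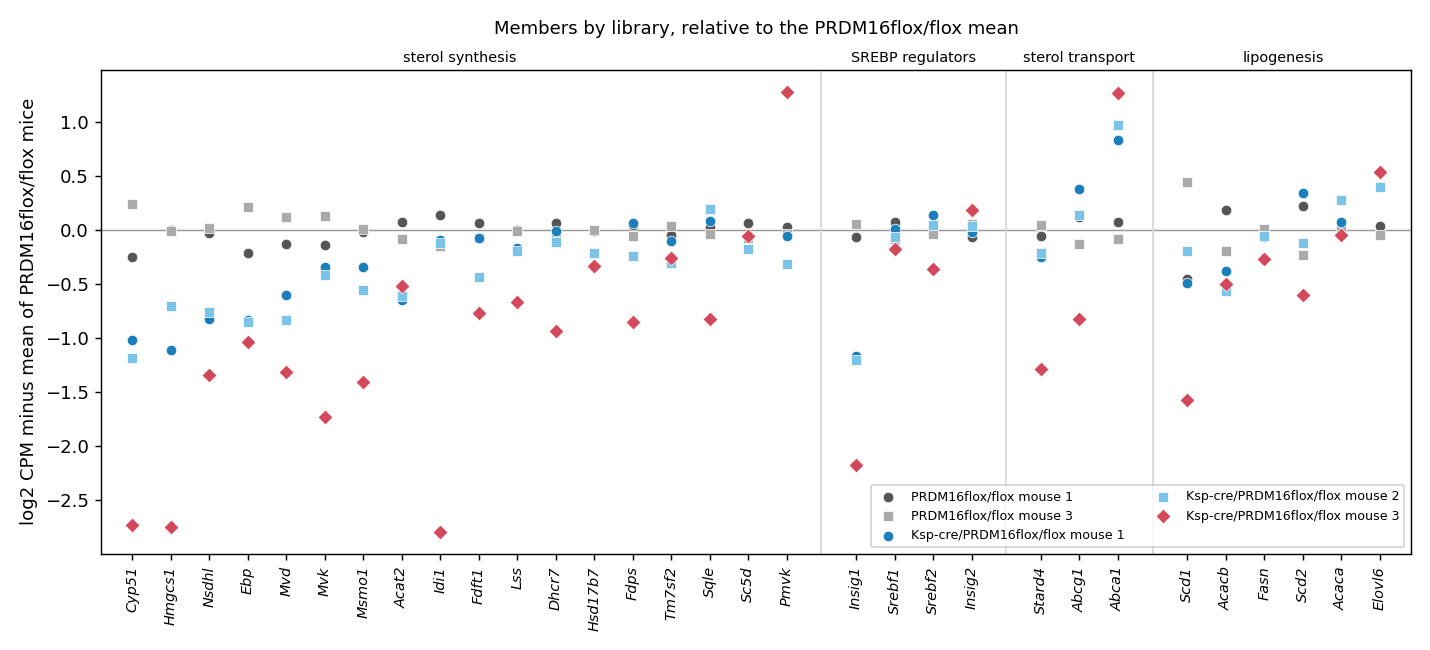
For each member, the log2 CPM of each library minus the mean of both PRDM16flox/flox mice, grouped by role and ordered by log2 fold change. Ksp-cre/PRDM16flox/flox mouse 3 (red diamonds) is the lowest of all 5 libraries for 22 of 31 members, and Pmvk and Abca1 are the members where it lies more than 1 above the PRDM16flox/flox mean.

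Of the 4 regulators of the SREBP system, Insig1 stood apart from the other 3. Insig1 (chromosome 5, 28276410 to 28283660 in the files) had 89.5 and 97.4 CPM in PRDM16flox/flox mice and 41.7, 40.5 and 20.7 CPM in Ksp-cre/PRDM16flox/flox mice. The groups were widely separated, with mouse 3 lowest. Insig1 had a log2 fold change of -1.44 ± 0.30 (SE), with an adjusted p of 0.0772 in edgeR and 0.000387 in DESeq2, and without mouse 3 it was -1.18 ± 0.10, with an adjusted p of 0.000383 in edgeR.

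Insig2, its paralog, which is not driven by SREBP in the same way, had 45.8 and 49.8 CPM in PRDM16flox/flox mice and 47.4, 49.0 and 54.6 CPM in Ksp-cre/PRDM16flox/flox mice. The groups overlapped, with a log2 fold change of 0.07 ± 0.12 (SE). The transcripts of the factors themselves also overlapped between groups. Srebf2 had 112 and 107 CPM in PRDM16flox/flox mice and 121, 113 and 85.1 CPM in Ksp-cre/PRDM16flox/flox mice, and Srebf1 ranged from 41.6 to 49.6 CPM over all 5. Their log2 fold changes were -0.04 ± 0.17 (0.10 ± 0.10 without mouse 3) and -0.08 ± 0.12. Processing of the SREBP proteins was not measured by these data.

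Of the 3 sterol transport genes, Abca1 was the member with the highest log2 fold change of the set. Abca1 (chromosome 4, 53030789 to 53159988 in the files), which loads cholesterol and phospholipid onto apolipoprotein A-I, had 59.8 and 53.7 CPM in PRDM16flox/flox mice and 101, 111 and 137 CPM in Ksp-cre/PRDM16flox/flox mice. Every Ksp-cre/PRDM16flox/flox mouse was higher, mouse 3 most. Abca1 had a log2 fold change of 1.04 ± 0.17 (SE), with an adjusted p of 0.0532 in edgeR and 3.67e-05 in DESeq2, and without mouse 3 it was 0.91 ± 0.11 with an adjusted p of 0.00132 in edgeR.

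Abcg1, another LXR target, did not share this pattern. It had 18.7 and 15.8 CPM in PRDM16flox/flox mice and 22.4, 19.0 and 9.73 CPM in Ksp-cre/PRDM16flox/flox mice, with mice 1 and 2 highest and mouse 3 lowest. Its log2 fold change was -0.02 ± 0.35 (SE) and, without mouse 3, 0.27 ± 0.15. Stard4, which carries cholesterol between membranes and is an SREBP target, had 117 and 126 CPM in PRDM16flox/flox mice and 102, 105 and 49.6 CPM in Ksp-cre/PRDM16flox/flox mice. The 3 were lower than both, with a log2 fold change of -0.50 ± 0.32, and of -0.23 ± 0.10 without mouse 3.

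The 6 lipogenesis enzymes had a median log2 fold change of -0.11, beside 0.04 over all genes. Without mouse 3 the medians were 0.04 and 0.02. By library, the median distance of the 6 from the PRDM16flox/flox mean was 0.01, -0.08 and -0.38 in Ksp-cre/PRDM16flox/flox mice 1, 2 and 3. Fasn, fatty acid synthase, had 65.8 and 66.7 CPM in PRDM16flox/flox mice and 63.6, 64.0 and 55.0 CPM in Ksp-cre/PRDM16flox/flox mice. Its log2 fold change was -0.12 ± 0.12 (SE). Elovl6, which elongates palmitate, had 28.7 and 26.9 CPM in PRDM16flox/flox mice and 40.4, 36.6 and 40.4 CPM in Ksp-cre/PRDM16flox/flox mice. All 3 were higher, by 0.50 ± 0.12 (SE) on the log2 scale. The adjusted p was 0.111 in edgeR, 0.0540 in DESeq2, and 0.0228 in edgeR without mouse 3.

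The carboxylases that make malonyl-CoA had fold changes of opposite sign, and neither was called. Acacb, the form at the mitochondrial surface, had 30.7 and 23.5 CPM in PRDM16flox/flox mice and 20.8, 18.3 and 19.1 CPM in Ksp-cre/PRDM16flox/flox mice. Its log2 fold change was -0.49 ± 0.16 (SE), with an adjusted p of 0.193 in edgeR. Acaca, the cytosolic form, ranged from 20.4 to 25.5 CPM with overlapping groups and a log2 fold change of 0.11 ± 0.15.

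The stearoyl-CoA desaturases are a family with similar coding sequences, so reads may be split between them. Scd1 had 27.4 and 50.9 CPM in PRDM16flox/flox mice and 26.7, 32.7 and 12.6 CPM in Ksp-cre/PRDM16flox/flox mice. Scd2 had 178 and 131 CPM in PRDM16flox/flox mice and 194, 141 and 101 CPM in Ksp-cre/PRDM16flox/flox mice. For both the groups overlapped, with log2 fold changes of -0.70 ± 0.43 (SE) and -0.09 ± 0.29 (-0.39 ± 0.25 and 0.12 ± 0.19 without mouse 3), and the PRDM16flox/flox mice already differed from each other.

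**Figure D3:**
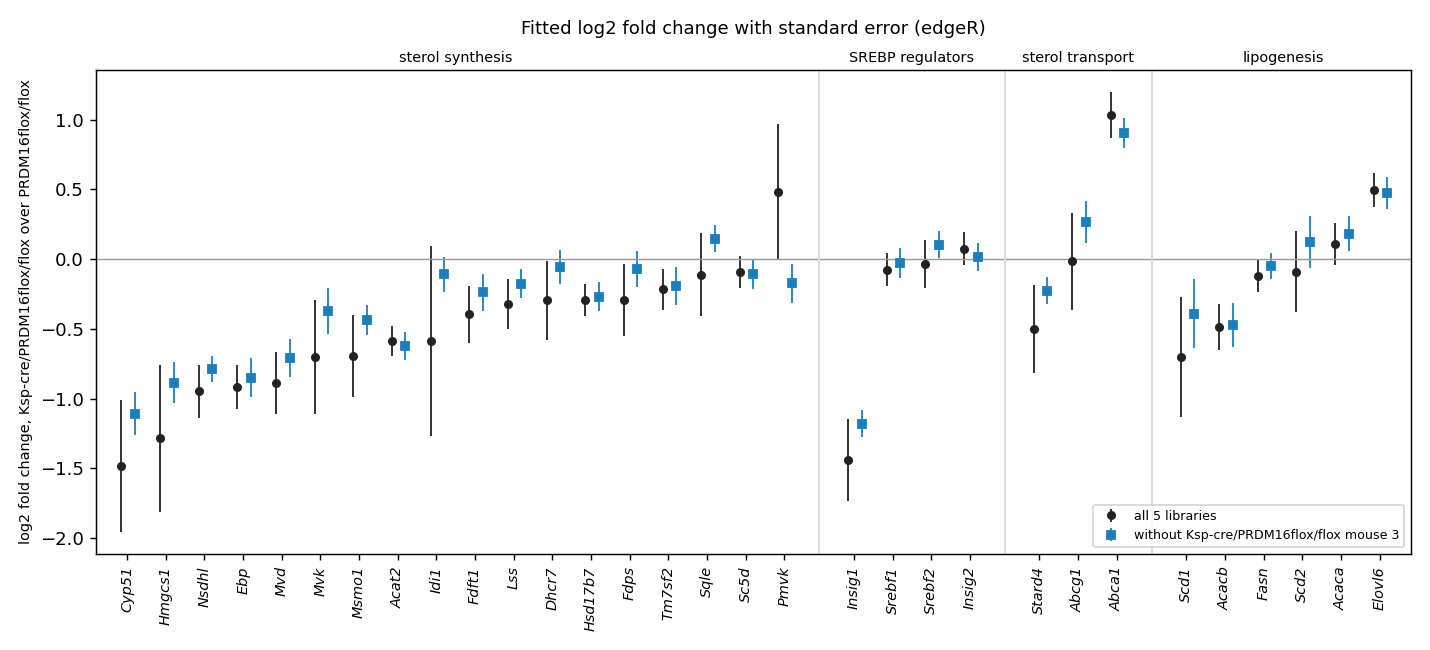
Log2 fold change of each member, Ksp-cre/PRDM16flox/flox over PRDM16flox/flox, from edgeR with all 5 libraries (black) and without Ksp-cre/PRDM16flox/flox mouse 3 (blue), with bars of 1 SE. Cyp51, Hmgcs1, Nsdhl, Ebp, Mvd and Insig1 lie well below 0 and Abca1 well above 0 in both, while Pmvk moves from 0.48 to -0.17.

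Within the Ksp-cre/PRDM16flox/flox group, mouse 3 was the lowest of all 5 libraries for 22 members (71.0%), as it was for 32.0% of all genes. It was at least 2-fold below both other Ksp-cre/PRDM16flox/flox mice for 6 members, as it was for 7.32% of all genes. These 6 were Hmgcs1, Cyp51, Idi1, Mvk, Stard4 and Scd1. The median difference between mouse 3 and the mean of mice 1 and 2 was -0.51 on the log2 scale over the members, and -0.57 over the sterol synthesis enzymes alone. Over all genes it was -0.01. Single members ranged from -2.67 for Idi1 to 1.46 for Pmvk, and Acat2 and Acacb were near 0, at 0.11 and -0.03. With 1 library, this difference has no replicate check.

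Other genes of the same pathways were counted for comparison. Of those listed, 31 were in the files and 30 were tested. None was called by edgeR with all libraries. At an unadjusted p under 0.05, 3 were lower (11.2% of all genes) and 3 higher (7.64%). DESeq2 called 1 lower (5.5% of all genes), namely Me1, with an adjusted p of 0.013. In edgeR its log2 fold change was -0.58 ± 0.15 (SE), with an adjusted p of 0.121, and every Ksp-cre/PRDM16flox/flox mouse was lower. Without mouse 3, edgeR called 4 lower (11.0% of all genes) and 3 higher (7.82%). The median log2 fold change of the 30 was 0.03, and 9 (30.0%) were lower and 7 (23.3%) higher in every Ksp-cre/PRDM16flox/flox mouse. Of all genes, 21.3% were lower and 20.3% higher in every one. The highest log2 fold changes were 0.71 ± 0.25 (SE) for Mylip, an LXR target and ubiquitin ligase, and 0.70 ± 0.38 for Acly, which makes cytosolic acetyl-CoA from citrate. The lowest were -0.95 ± 0.36 for Acss2, which makes acetyl-CoA from acetate, and -0.63 ± 0.28 for Lpin1, a phosphatidate phosphatase. None of these 4 passed the test in edgeR with all libraries. Without mouse 3, Acly was 0.22 with an adjusted p of 0.155 in edgeR. The same fit called Mylip (0.45, adjusted p = 0.036), Acss2 (-0.65, adjusted p = 0.0163) and Lpin1 (-0.93, adjusted p = 0.00385).

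Markers of the tubule cells also had negative log2 fold changes, and their levels by library were set beside those of the sterol genes. Proximal tubule markers had negative log2 fold changes for 14 of 14 genes (46.0% of all genes). Of the 14, 3 were called in edgeR (0.976% of all genes), and the median was -1.15. Their summed levels were 17600 and 20100 CPM in PRDM16flox/flox mice and 7360, 8840 and 11000 CPM in Ksp-cre/PRDM16flox/flox mice 1, 2 and 3. By library, the median distance of these markers from the PRDM16flox/flox mean was -1.03, -1.05 and -1.71. Mouse 3 was thus lowest by the median but highest of the 3 by the sum, in which Pck1 (5556 CPM) and Slc27a2 (2480 CPM) weighed most. For both genes the groups overlapped, as PRDM16flox/flox mouse 1 had 5424 and 2168 CPM. Distal nephron markers had negative values for 4 of 4 genes (median -0.69, none called, summed 4200 and 4610 CPM against 1500 to 3370), with mouse 3 lowest by both the sum and the median. Within this list, Aqp2 overlapped between groups and was highest in mouse 3. It had 131.6 CPM in each PRDM16flox/flox mouse and 132.5, 57.1 and 152.6 CPM in Ksp-cre/PRDM16flox/flox mice. In such bulk tissue, fewer cells of a type and less RNA per cell cannot be told apart, and the part of these markers in the values of the sterol genes was not tested.

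Tubular injury markers had positive values for 8 of 8 genes (median 1.08, none called, summed 15200 and 15800 CPM against 32400 to 38300). Over all genes tested, 46.0% of the values were negative. Macrophage markers had positive values for 8 of 10 and negative for 2 (median 0.26, none called). Their summed level was 1040 and 1470 CPM in PRDM16flox/flox mice and 1720, 1590 and 1000 CPM in Ksp-cre/PRDM16flox/flox mice 1, 2 and 3. Lyz2 had 229 CPM in mouse 3 against 464 to 772 CPM in the other libraries, while Itgam (56.3 CPM) and Cd14 (176 CPM) were highest in mouse 3. The median distance of the macrophage markers from the PRDM16flox/flox mean was 0.50, 0.39 and -0.03 in Ksp-cre/PRDM16flox/flox mice 1, 2 and 3. Erythroid genes had positive values for 5 of 5 (median 3.93, summed 6.67 and 10.8 CPM against 40.5 to 151) and proliferation genes for 5 of 5 (median 0.40), with none called. Summed proliferation genes had 99.8 and 88.9 CPM in PRDM16flox/flox mice and 161, 123 and 80.2 CPM in Ksp-cre/PRDM16flox/flox mice 1, 2 and 3. Mouse 3 thus lay below both PRDM16flox/flox mice by this sum. The part of these lists in the members' values was not tested.

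Perirenal fat and the adrenal gland, both rich in lipid synthesis genes, lie against the kidney. Of 10 adipocyte markers, 6 had under 10 counts in every library, among them the defining Adipoq, Plin1 and Lep. The 4 tested, Cidec, Fabp4, Lipe and Plin4, all had positive log2 fold changes (median 0.77) and were highest in mouse 3. Their median distance from the PRDM16flox/flox mean was 0.13, 0.23 and 1.54 in Ksp-cre/PRDM16flox/flox mice 1, 2 and 3. The summed level of all 10 was 50.6 and 51.9 CPM in PRDM16flox/flox mice and 55.5, 55.5 and 111 CPM in Ksp-cre/PRDM16flox/flox mice. Of 8 adrenal cortex markers, 7 had under 10 counts in every library, including Cyp11a1 and Cyp11b1, and Star, the 1 tested, ranged from 5.33 to 8.40 CPM. None of the tested markers of either list was called. Both sums were highest in mouse 3.

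**Figure D4:**
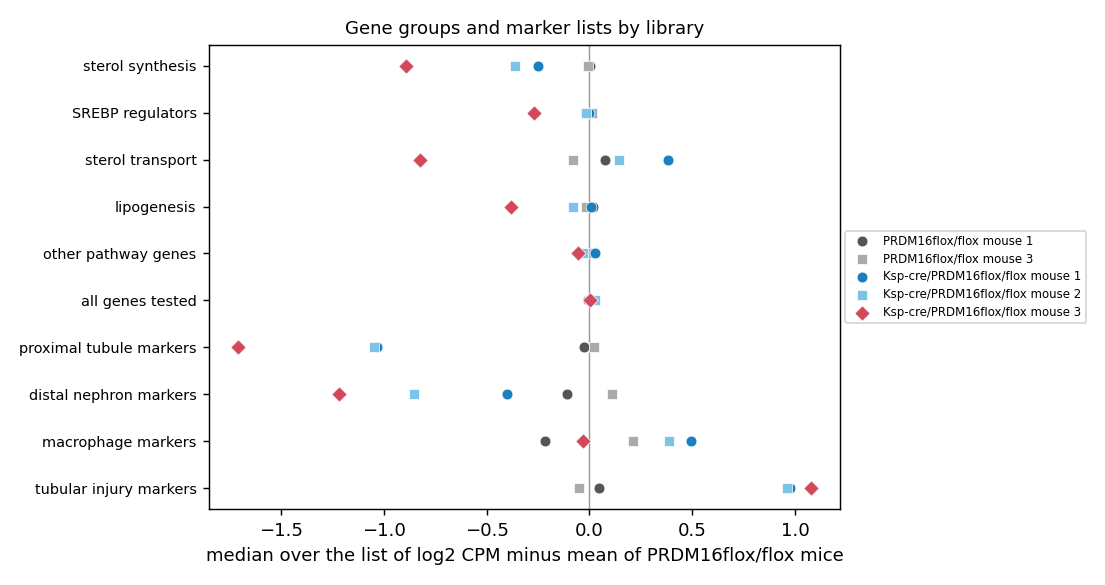
Median over each gene group or marker list of the log2 CPM of a library minus the mean of both PRDM16flox/flox mice, with 1 point per library. Sterol synthesis enzymes sit at -0.25, -0.36 and -0.89 in Ksp-cre/PRDM16flox/flox mice 1, 2 and 3, proximal tubule markers at -1.03, -1.05 and -1.71, and all genes tested within 0.03 of 0.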

How the data were processed

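RNA-seq tables of 5 mouse kidneys were analysed, 1 per mouse, grouped by the genotype in the sample titles. After adapter and quality filtering of the reads, the authors deposited raw counts per gene, not normalized. The authors also deposited TPM, scaled by gene length to one total per library, and FPKM, and both follow from the counts. The submitters' processing notes name featureCounts 2.0.1, DESeq2 1.16.1 and CASAVA, and a human build, hg38, which cannot apply to mouse tables. The aligner, mouse build and strand setting are not given in the sources used here. Positions differ from GRCm38, so gene positions are printed as the files give them, and GRCm38.p6 was used only for promoter sequence.

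Lines of 5 genes were broken and were rejoined. Counts were filtered with filterByExpr of edgeR 4.0.16 (R 4.3.3), scaled with TMM and tested over all 16394 genes with the quasi-likelihood test without covariates, with Benjamini-Hochberg adjustment at 0.05. Values after ± are standard errors of log2 fold changes. The methods state that littermate controls were used, but which mice shared a litter or an extraction day is not given in the sources used here, so p-values measure the spread between these mice. No pair of libraries was a duplicate: the lowest chi-square per degree of freedom between libraries was 9.89. The method was tested on simulated counts.

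Alternatives were DESeq2 1.42.0, other scalings and filters, limma 3.58.1 on log2(TPM + 1) and log2(TPM + 0.1), removal of trends with gene length and GC content, the mouse number as a block, and leaving out each mouse. Members with an unadjusted p under 0.05, the extremes of each role and the 5 with the highest TPM were given by library. Other members shown by library, and the genes named among markers, were chosen after their values were seen. The members, the list of other pathway genes and the marker lists (proximal tubule, distal nephron, tubular injury, macrophage, erythroid, proliferation, adipocyte, adrenal cortex) were chosen with earlier results of these data known. Some genes of the list of other pathway genes enter its counts but are not reported here singly.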

Additional observations from a re-analysis of the deposited data

How the results depend on the processing

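With 2 mice against 3, single libraries set the calls. Against 160 genes called (17 higher, 143 lower), DESeq2 called 1210 (308 higher, 902 lower), library size scaling 51 (14 and 37), no filter beyond 1 count 471, limma on log2(TPM + 1) 46 (20 and 26) and on log2(TPM + 0.1) 43 (20 and 23), and removal of length and GC trends 43. Leaving out 1 mouse at a time gave 0 to 3053 genes, the latter without Ksp-cre/PRDM16flox/flox mouse 3 and 0 without any other. For members the count of 0 became 7 of 31 with DESeq2, beside 1210 of all 16394 genes. It became 4 without the filter (471 of 25633 genes) and 1 with at least 10 counts in every library (213 of 14796 genes). Without Ksp-cre/PRDM16flox/flox mouse 3 it was 10 (3053 of 16196 genes), and it was 0 without mouse 1 or 2 of that group. It was 0 under the other alternatives, with 7 to 12 members at an unadjusted p under 0.05.

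The labels share mouse numbers 1 and 3 between groups but do not say that they pair the mice. Deviations of same-numbered mice from their group means had correlations of r = 0.001 and -0.022. With 2 PRDM16flox/flox mice, the deviations of 1 mirror those of the other, so this check cannot decide whether mice were paired. The replicate block, in which Ksp-cre/PRDM16flox/flox mouse 2 has no partner and adds nothing, called 0 genes (2061 at an unadjusted p under 0.05). It also called 0 together with the length and GC trends (1906 unadjusted).

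The members' median stayed negative under all 16 alternatives, 0.19 to 0.50 below that of all genes, which itself moved to 0.15 with library size scaling and to 0.23 and 0.26 with TPM. The log2 fold change of 21 members never changed sign. Signs turned for 10 others, whose calls were not significant either way. With library size scaling, values became 0.11 (Abcg1), 0.017 (Sc5d), 0.034 (Scd2), 0.016 (Sqle), 0.037 (Srebf1) and 0.083 (Srebf2), and Abcg1 was 0.006 with upper quartile scaling. With TPM + 1 and TPM + 0.1 they became 0.14 and 0.14 (Abcg1), 0.11 and 0.11 (Fasn), 0.14 and 0.15 (Sc5d), 0.12 and 0.12 (Scd2), 0.061 and 0.061 (Sqle), 0.16 and 0.16 (Srebf1), 0.18 and 0.19 (Srebf2), and 0.020 and 0.021 (Tm7sf2). All of these lay below the shift of all genes in the same fit. Acaca was -0.006 with the replicate block and trends removed. Leaving out 1 mouse gave -0.26 to 0.27 for Abcg1, -0.17 to 0.76 for Pmvk, -0.35 to 0.15 for Scd2, -0.30 to 0.15 for Sqle, -0.15 to 0.001 for Srebf1 and -0.14 to 0.10 for Srebf2. The cause was not tested.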
